A study of Homo sapiens with 7 samples.

Results

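Long noncoding RNAs named as long intergenic noncoding (LINC) genes and as hosts of small nucleolar RNAs (snoRNAs) were followed in human embryonic stem cells treated with an ERK5 inhibitor. Members were rows named LINC or SNHG followed by a number, LINC-ROR, and 5 RNAs given by name (GAS5, ESRG, MEG3, MALAT1 and NEAT1), with a mean of at least 50 deposited units over the 7 libraries. Of 315 matching names among the 19775 genes listed, 94 reached that mean and 221 did not. The 94 comprise 72 LINC genes of 289 names, 19 snoRNA hosts of 23 names (the SNHG genes and GAS5), and ESRG, MALAT1 and NEAT1. MEG3 is not analysed here. The last LINC genes inside the threshold were LINC00648 (mean 50.2) and LINC01234 (50.8), and the nearest outside were LINC00526 (49.98) and LINC00847 (49.7). LINC-ROR, with a mean of 35.6, was below it and is described separately.

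The cells were wild-type H1, an established human embryonic stem cell line, in E8, a defined feeder-free medium. Untreated cells were sampled at 48 h (n = 2), and cells with 1 µM XMD892 at 12 h (n = 1), 24 h (n = 2) and 48 h (n = 2). XMD892 inhibits the kinase ERK5 (MAPK7). Since E8 cells were sampled at 48 h only, inhibitor and harvest time cannot be told apart at 12 h and 24 h. The labels do not say that replicates were separate cultures, so p-values cover the spread among these libraries, which may be technical. For each gene that spread was estimated in large part from other tested genes. The 3 comparisons with E8 share the same pair of E8 libraries.

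Poly(A) RNA was sequenced to 18528689 to 24148186 reads per library over the listed genes. Every value is the authors' read count divided by 1 factor per library. All 9 pluripotency markers were listed, and their sum, carried mainly by POU5F1, LIN28A and DNMT3B, was 178012 to 205219 in E8 and 166017 to 190249 after XMD892. NANOG, at 6631 and 5818 in E8, was 2552 to 4138 after treatment, and TDGF1, at 11878 and 10254, was 6213 to 7791. The 4 trophoblast markers listed of 5 summed to 277 to 349 in E8 and 81.2 to 147 after treatment. The 3 neuroectoderm markers listed of 4 summed to 6791 to 10206 in E8, 18964 at 12 h, 11944 to 13678 at 24 h and 8187 to 9071 at 48 h. That sum is almost all NES, whereas OTX2 was 227 and 197 in E8 and 29.2 to 137 in the treated libraries. SOX1 was 33.2 and 48.8 in E8, 45.1 after 12 h, 43.7 and 44.0 after 24 h, and 79.9 and 111 after 48 h. The endoderm list had 1 of 4 markers, at 0 to 13.97 in all libraries. The part of these marker changes in the results was not tested. In bulk RNA, fewer cells of a type and less RNA per cell cannot be told apart.

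Most LINC genes are spliced, polyadenylated transcripts with no recognised long reading frame, often restricted to few cell types and often of unknown function. SnoRNA hosts are transcribed and spliced like messenger RNAs, but their introns carry snoRNAs, which guide the methylation or pseudouridylation of ribosomal and spliceosomal RNA once the intron is cut out. Several hosts start, like ribosomal protein genes, at a run of pyrimidines, and the spliced host of many is degraded through nonsense-mediated decay. Poly(A) libraries read the spliced host and not the snoRNA, which has no poly(A) tail.

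The start sites show how the hosts differ from the LINC genes in a feature the selection did not use. Each line gives 20 bases before and 30 bases from the start listed by RefSeq on GRCh38.p14, 5′ to 3′ on the gene's strand, and capitals mark a run of at least 5 pyrimidines that begins with C at the first transcribed base. SNHG12, SNHG19 and SNHG5 carry that run, as does SNHG18, and SNHG26 and LINC01108 do not.
SNHG12, chr1:28581844-28581893, minus strand: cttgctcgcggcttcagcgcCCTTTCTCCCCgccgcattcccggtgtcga
SNHG19, chr16:2155329-2155378, minus strand: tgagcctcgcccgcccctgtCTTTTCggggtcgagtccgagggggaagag
SNHG5, chr6:85678704-85678753, minus strand: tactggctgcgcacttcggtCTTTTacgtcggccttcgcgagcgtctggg
SNHG18, chr5:9546180-9546229, plus strand: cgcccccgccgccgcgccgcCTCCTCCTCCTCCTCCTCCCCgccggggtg
SNHG26, chr7:22854220-22854269, plus strand: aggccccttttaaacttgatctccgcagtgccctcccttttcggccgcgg
LINC01108, chr6:14285425-14285474, minus strand: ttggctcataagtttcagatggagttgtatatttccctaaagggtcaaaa

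RefSeq promoters were matched for 69 of the 94 members, 17 of them hosts and 51 LINC genes. The run, read on the transcribed strand only, stood at the start of 5 of the 17 hosts (29.4%; SNHG4 is the fifth) and of 1 of the 51 LINC genes (1.96%, LINC02035). The share was 4.07% over all 35116 promoters of the table and 55.8% over 86 ribosomal protein genes. The 300 bases from 250 before to 50 after the start held a median of 27 CpG dinucleotides in hosts, 20 in LINC genes and 14 over all promoters. A gene can have other starts than the one listed: SNHG14, for example, starts elsewhere in GENCODE 29. The match describes letters only.

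The snoRNAs themselves illustrate what the hosts carry. All 19 hosts contain a RefSeq snoRNA or the related Cajal-body RNA within their bounds, 134 in all, of which 84 lie in SNHG14. Only 2 of the LINC genes do, LINC00888 with 3 and LINC02001 with 1. RefSeq names these genes SNHG33 and SNHG30, and they count as LINC genes here by their deposited names only. The box C motif TGATGA and the box D motif CTGA, which bind the proteins of methylation-guiding snoRNAs, are in capitals below in 3 examples from GENCODE 29 transcripts, chosen because their hosts changed.
SNORD116-1, in SNHG14: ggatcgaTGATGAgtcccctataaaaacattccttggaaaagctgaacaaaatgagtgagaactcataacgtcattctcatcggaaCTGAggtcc
SNORD60, in SNHG19: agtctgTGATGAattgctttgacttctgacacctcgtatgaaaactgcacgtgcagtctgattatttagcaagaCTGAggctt
SNORD123, in SNHG18: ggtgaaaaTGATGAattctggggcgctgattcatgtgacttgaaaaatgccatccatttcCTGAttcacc

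After XMD892, the LINC genes that passed the test mostly fell, and the hosts that passed went in both directions. A gene passed (was called) at a limma adjusted p under 0.05 over all 16351 genes tested, those with a mean of at least 10. At 24 h, 14 LINC genes fell, 5 rose and 53 did not pass, so 26.4% of LINC genes were called where 16.2% of all tested genes were. At 48 h, 10 fell, 1 rose and 61 did not pass (15.3% called, against 11.5% of all tested genes). At 12 h, from a single library, 6 fell, 2 rose and 64 did not pass (11.1% against 7.46%). The share that fell can be read against the lower calls among all tested genes, which were 7.56% at 24 h, 6.45% at 48 h and 4.89% at 12 h. Among LINC genes the lower calls were 19.4%, 13.9% and 8.33%. Higher calls made up 8.66%, 5.08% and 2.56% of all tested genes and 6.94%, 1.39% and 2.78% of LINC genes. Among the 659 tested genes that RefSeq types as long noncoding, members included, 12.7% were called at 24 h, and 66 genes at 48 h. Both are smaller shares than over all tested genes (16.2% and 11.5%). Lower calls made up 8.19% of these 659 genes at 24 h, 6.22% at 48 h and 5.31% at 12 h. Higher calls made up 4.55%, 3.79% and 1.37% of them. Among tested genes with a mean of at least 50, like the members, 18.3% were called at 24 h and 12.9% at 48 h.

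Class medians lay near 0. The median log2 fold change of the LINC genes was -0.01 at 48 h, -0.11 at 24 h and -0.09 at 12 h, beside 0.02, 0.01 and 0.02 over all tested genes. At 24 h, 37 of 72 LINC genes had a negative value. With the trend along GC content removed, the 24 h median was 0.02 for LINC genes and 0.05 over all tested genes. Counts of LINC calls moved with single libraries, and those over all tested genes moved the same way. LINC calls at 48 h were fewer without the first or without the second 48 h library and more without the second E8 library. Those at 24 h were fewer without the first 24 h library, and those at 12 h were more without the second E8 library.

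Of the 19 hosts, 4 rose, 3 fell and 12 did not pass at 24 h (36.8% called), 3 rose, 2 fell and 14 did not pass at 48 h (26.3%), and 1 rose and 1 fell at 12 h (10.5%). The shares over all tested genes were 16.2%, 11.5% and 7.46%. Their median log2 fold change was 0.10 at 24 h, 0.04 at 48 h and 0.16 at 12 h. The counts of called hosts moved with single libraries, and those over all tested genes moved the same way. Fewer hosts were called at 24 h without the first E8 library or the first 24 h library. At 48 h fewer were called without the first E8 library or either 48 h library. More were called at 48 h and 12 h without the second E8 library. At 12 h more were called without either 24 h library and fewer without either 48 h library. DESeq2 on the recovered reads called 4 hosts at 24 h. At 48 h it called 3, all lower.

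**Figure D1:**
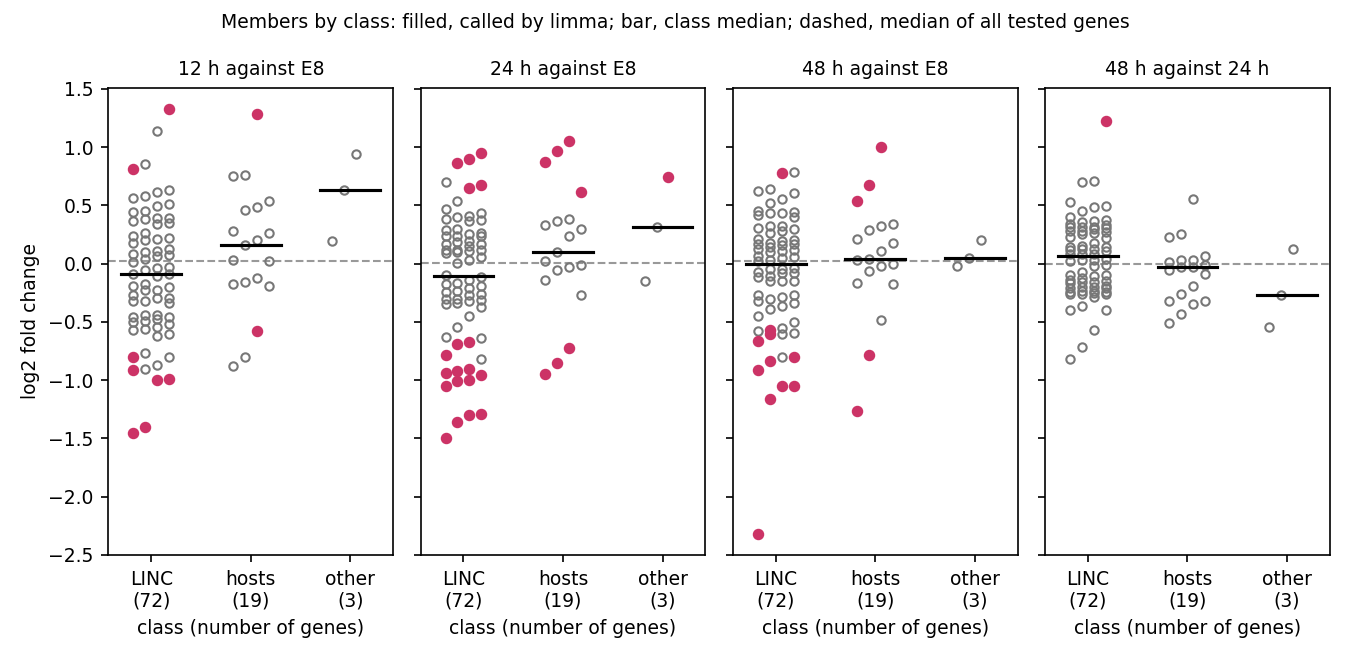
Log2 fold change (vertical axis) of each LINC gene, snoRNA host and other named RNA at 12 h, 24 h and 48 h against E8 and at 48 h against 24 h, 1 panel each. Filled points passed the limma test, bars are class medians and the dashed line is the median of all tested genes; against E8 the LINC medians lie between -0.11 and -0.01 and filled LINC points are mostly below 0, while filled hosts lie on both sides.

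Hosts had higher levels per length than LINC genes at the median. Per kilobase of merged exons in E8, the median was 51.9 units for LINC genes and 161 for hosts. The highest levels per kilobase were those of ESRG (7724), LINC00678 (2984), GAS5 (1199), SNHG6 (1040), SNHG19 (904), SNHG5 (885) and SNHG1 (847). The median absolute log2 difference between the E8 replicates was 0.20 for LINC genes, 0.23 for hosts and 0.27 for all tested genes. Between the 48 h replicates it was 0.19, 0.10 and 0.18.

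Among the LINC genes, LINC01356 had the largest change at 48 h. It is annotated at chr1:112820170-112850643 (GENCODE 29, GRCh38, minus strand). Of the 50-base runs in its longest transcript, 25.7% also stand in transcripts of other genes, on either strand. Its level was 145 and 99.98 in E8, 65.5 after 12 h, 46.9 and 37.4 after 24 h, and 23.8 and 22.8 after 48 h. The groups with replicates do not overlap, and each later time lies below the one before. The mean fell from 122 ± 31.8 (SD, n = 2) to 23.3 ± 0.669 (SD, n = 2), 5.26-fold lower at 48 h (log2 fold change -2.32, SE 0.31, limma adjusted p = 2.7e-05). At 24 h the log2 fold change was -1.50 (limma adjusted p = 0.0022), and at 12 h the value of -0.87 did not pass (limma adjusted p = 0.17).

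LINC01108, at chr6:14280127-14285454 (minus strand), fell at all 3 times. It measured 1118 and 989 in E8, 384 after 12 h, 499 and 589 after 24 h, and 457 and 485 after 48 h. Its treated libraries all lay far below E8, the lowest at 12 h. The log2 fold changes were -1.45 at 12 h, -0.95 at 24 h and -1.16 at 48 h (limma adjusted p = 8.7e-05, 0.00057 and 6.4e-05). LINC00599, the host of a brain-enriched microRNA, measured 978 and 981 in E8, 562 after 12 h, 462 and 575 after 24 h, and 649 and 636 after 48 h. It passed at each time and was lowest at 24 h, with log2 fold changes of -0.80, -0.92 and -0.61 at 12, 24 and 48 h. Without the first (-0.62) or second (-0.59) 48 h library the 48 h call was lost.

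LINC01194 and LINC01021 also fell at both 24 h and 48 h. LINC01194, at chr5:12574857-12804363 (plus strand), measured 773 and 578 in E8, 449 after 12 h, 345 and 321 after 24 h, and 365 and 486 after 48 h, all treated values lying below E8. Its log2 fold change was -1.01 at 24 h (limma adjusted p = 0.0011) and -0.67 at 48 h (limma adjusted p = 0.023; -0.46 and not called without the first E8 library or without the first 48 h library). LINC01021, named PURPL in RefSeq and known as a p53-induced transcript, is at chr5:27472292-27496401 (plus strand). It measured 375 and 284 in E8, 240.5 after 12 h, 196 and 208 after 24 h, and 150.1 and 232 after 48 h. The log2 fold change was -0.80 at 48 h (limma adjusted p = 0.019), and it was -0.60 without the first E8 library and -0.49 without the first 48 h library, neither passing. Its 24 h call was likewise lost without the first E8 library (-0.49) and without the first (-0.65) or second (-0.73) 24 h library. For comparison, the p53 target CDKN1A, a cell-cycle inhibitor, had a log2 fold change of -1.46 at 48 h. At 24 h CDKN1A stood at -0.07, where LINC01021 stood at -0.69. At 12 h CDKN1A stood at 0.66 and LINC01021 at -0.44, neither called. MDM2, another p53 target, stood at -0.62 at 48 h (called) and -0.26 at 24 h (not called).

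For 3 LINC genes that fell, much of the sequence also stands in transcripts of other genes, on either strand, so their reads may be split or shared. This holds for 91.7% of the 50-base runs of LINC01002, 82.9% of those of LINC01001 and 63.5% of those of LINC01090. For LINC01090 nearly all of it is a pseudogene, AC104131.1 (61.8%), annotated inside its bounds on the opposite strand. LINC01002 measured 377 and 325 in E8, 132 after 12 h, 169 and 205 after 24 h, and 159.8 and 177 after 48 h, and its log2 fold change at 48 h was -1.05. LINC01001 measured 308 and 271 in E8, 154 after 12 h, 84.4 and 148 after 24 h, and 161 and 120.0 after 48 h, and its value was -1.36 at 24 h. LINC01090 measured 255 and 251 in E8, 127 after 12 h, 93.7 and 112 after 24 h, and 158 and 113 after 48 h, with -1.29 at 24 h. No treated library of these genes reached the E8 levels, and which gene gave the reads is uncertain. Without the second 48 h library, LINC01001 (-0.84) and LINC01090 (-0.68) lost their 48 h calls, and without the first 24 h library LINC01002 (-0.77) lost its 24 h call.

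Other LINC genes were called at 24 h without passing at 48 h. LINC00467 measured 184 and 154 in E8, 133 after 12 h, 78.1 and 89.8 after 24 h, and 92.9 and 151 after 48 h, and had a log2 fold change of -0.998 at 24 h (limma adjusted p = 0.009). LINC01950 measured 74.2 and 71.1 in E8, 58.0 after 12 h, 17.7 and 46.8 after 24 h, and 44.3 and 51.6 after 48 h. Its -1.30 at 24 h (limma adjusted p = 0.018) rested on the first 24 h library, without which it was -0.62 and not called. LINC00698 (-0.94), LINC00649 (-0.79) and LINC00371 (-0.67) also fell at 24 h, and without the first 24 h library they were -0.73, -0.55 and -0.28, none called. Without the first E8 library LINC00698 (-0.74) and LINC00371 (-0.48) were not called either. LINC00337 (-0.83) and LINC01278 (-0.57) fell at 48 h, and LINC01278 was not called without the first E8 library (-0.48) or without any one of the 24 h and 48 h libraries. LINC00337 was not called without the second E8 library (-0.71) or without the first (-0.91) or second (-0.75) 48 h library. It shares exon bases with ICMT on the opposite strand, and LINC00371 is a protein-coding gene, C13orf42, in RefSeq.

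LINC01876 was the 1 LINC gene called between the treated times (1.39% of LINC genes, against 1.2% of all tested genes, with 0.349% of all tested genes higher). It is at chr2:156011530-156254950 (minus strand). Its level was 56.8 and 73.5 in E8, 52.6 after 12 h, 27.1 and 34.6 after 24 h, and 69.1 and 76.4 after 48 h. It was low at 24 h alone, with a log2 fold change of -1.05 against E8 (limma adjusted p = 0.02), and at 48 h its libraries overlapped E8. The 24 h call was lost with DESeq2 (-1.09), without the second E8 library (-0.87) and without the first 24 h library (-0.88). From 24 h to 48 h it rose 2.36-fold, a log2 fold change of 1.22 (SE 0.30, limma adjusted p = 0.046), which did not pass with edgeR or DESeq2. Without the first 24 h library the change from 24 h to 48 h was 1.05, and 1.29 without the first and 1.15 without the second 48 h library, none of them called.

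The LINC genes that rose were fewer. LINC00863 was higher at 24 h and 48 h, at 97.8 and 112 in E8, 155 after 12 h, 203 and 187 after 24 h, and 177 and 181 after 48 h. The log2 fold changes were 0.89 and 0.77 (limma adjusted p = 0.0057 and 0.017), and its exons overlap those of NUTM2D on the same strand, so the genes may share reads. Its 48 h call was lost without the first E8 library (0.68) and without the first (0.79) or second (0.76) 48 h library, and its 24 h call without the first 24 h library (0.83). LINC01405 measured 41.9 and 77.7 in E8, 145 after 12 h, 95.8 and 114 after 24 h, and 109 and 90.3 after 48 h. Its E8 libraries differ by -0.87 on the log2 scale (first minus second), and the log2 fold changes of 1.33 at 12 h and 0.86 at 24 h became 0.89 and 0.42, neither called, without the first E8 library. LINC00116 (0.95), LINC01315 (0.67) and LINC01963 (0.64) rose at 24 h, and LINC01963 also at 12 h (0.81). Without the first E8 library LINC00116 was 0.62, still called, and LINC01315 0.43, not called. Without the first or second 24 h library LINC01315 (0.70 and 0.64) and LINC01963 (0.58 and 0.71) lost their 24 h calls. LINC00116 is MTLN in RefSeq, which encodes a small mitochondrial protein that was recognised only after the locus had been named as noncoding.

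LINC01896 passed at 12 h only. It measured 389 and 550.3 in E8, 231 after 12 h, 406 and 347 after 24 h, and 410.3 and 469 after 48 h. The 12 h library was the lowest, with a log2 fold change of -1.001 (limma adjusted p = 0.0099), and no second 12 h library entered the fit.

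The other 50 LINC genes passed in no comparison. Their log2 fold changes lay between -0.81 and 0.64 at 48 h and between -0.82 and 0.70 at 24 h, and their E8 means between 38.7 and 3476. LINC00678, the LINC gene with the highest level per kilobase, measured 3543 and 3410 in E8, 3261 after 12 h, 2990 and 3080 after 24 h, and 4124 and 3720 after 48 h. The 24 h libraries are the lowest and the 48 h libraries the highest, with log2 fold changes of -0.20 and 0.17 that did not pass. LINC00665, next in total level, measured 2624 and 2455 in E8, 2729 after 12 h, 2128 and 2392 after 24 h, and 2085 and 2135 after 48 h (-0.27 at 48 h, limma adjusted p = 0.24).

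**Figure D2:**
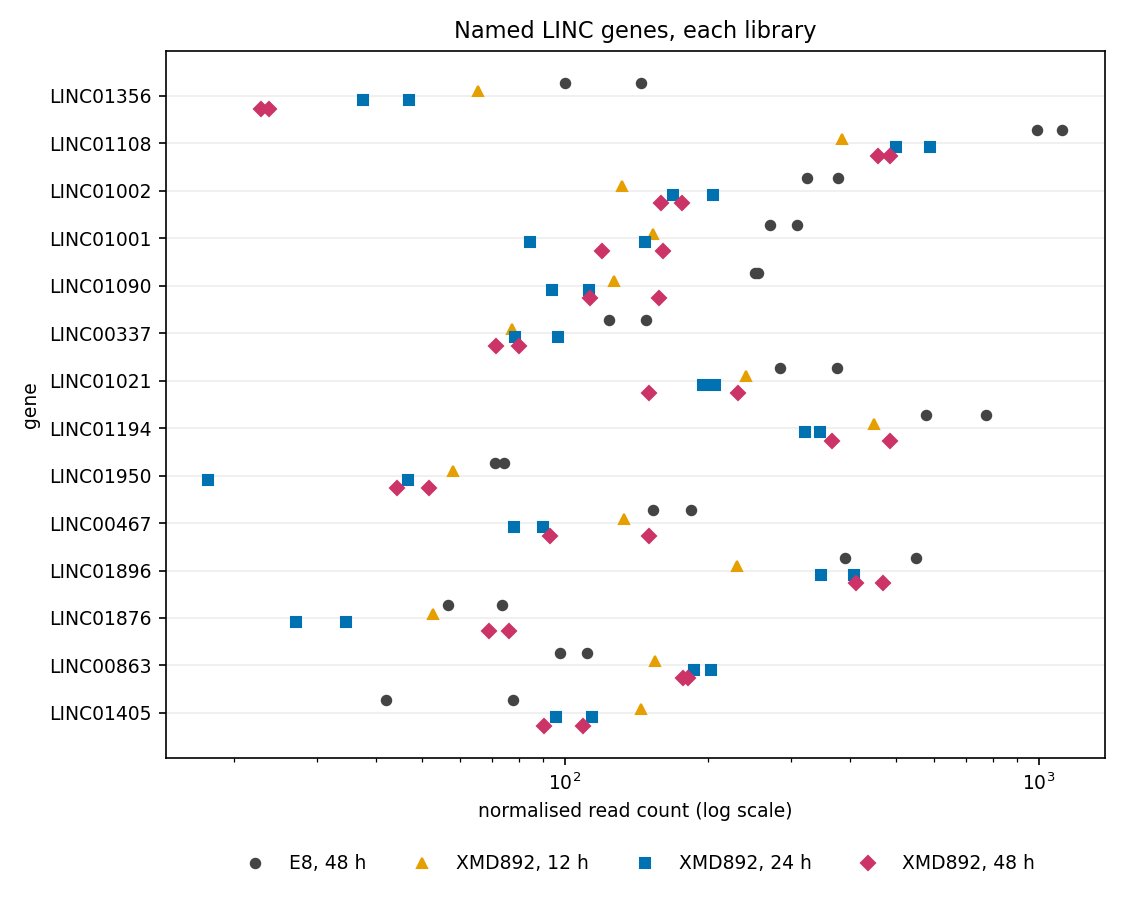
Deposited values (horizontal log axis) of the named LINC genes, 1 row per gene and 1 point per library, with the marker showing the group (E8 at 48 h, XMD892 at 12 h, 24 h and 48 h). LINC01356 is lowest in the 48 h libraries (23.8 and 22.8) and LINC01876 in the 24 h libraries (27.1 and 34.6).

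The pluripotency-associated RNAs ESRG and LINC-ROR had different courses. ESRG, a transcript highly enriched in human pluripotent cells, measured 26713 and 21794 in E8, 27533 after 12 h, 19162 and 24764 after 24 h, and 24965 and 22598 after 48 h. Treated and untreated values overlap, and its log2 fold changes of -0.02 at 48 h, -0.15 at 24 h and 0.19 at 12 h did not pass. LINC-ROR, known for its part in reprogramming to pluripotency, measured 75.1 and 94.2 in E8, 19.3 after 12 h, 9.37 and 28.1 after 24 h, and 16.2 and 6.94 after 48 h. All treated values lie below the E8 values, and the log2 fold changes were -2.86 at 48 h, -2.29 at 24 h and -2.07 at 12 h (limma adjusted p = 0.00048, 0.0031 and 0.037). The 12 h call was lost without the second E8 library (-1.90). LINC00458, another RNA of pluripotent cells with a mean of 24.0, was chosen after its values were seen. It measured 57.6 and 51.2 in E8 and 6.55 to 18.7 in the treated libraries, and passed at all 3 times, though its 48 h and 24 h calls were lost without the first E8 library (-2.07 and -2.10) and without the second 48 h (-1.52) or second 24 h (-1.49) library. Over the 102 LINC names with means between 10 and 50, 9 fell and 4 rose at 48 h, 9 fell and 2 rose at 24 h, and 9 fell and none rose at 12 h. That is 12.7%, 10.8% and 8.82% called, beside 11.5%, 16.2% and 7.46% of all tested genes.

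Of the nuclear RNAs MALAT1, found in nuclear speckles, and NEAT1, which organises paraspeckles, MALAT1 rose at 24 h. The values are of poly(A) RNA, and RNA of either gene without a poly(A) tail was not measured. MALAT1 measured 1240 and 1134 in E8, 1835 after 12 h, 2333 and 1682 after 24 h, and 1072 and 1729 after 48 h. The log2 fold change at 24 h was 0.74 (limma adjusted p = 0.012), and without the first 24 h library it was 0.50 and not called. NEAT1 measured 133 and 139 in E8, 262 after 12 h, 225 and 127 after 24 h, and 110.1 and 179 after 48 h, and its 12 h value of 0.94 did not pass (limma adjusted p = 0.073). The 48 h replicates of both RNAs lie on either side of the E8 values.

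SNHG14 was the host with the highest total level and it fell. This gene, at chr15:24978583-25419462 (plus strand), lies in the imprinted region of chromosome 15 and carries the SNORD115 and SNORD116 clusters. It measured 20954 and 18204 in E8, 13050 after 12 h, 10330 and 11358 after 24 h, and 11633 and 11038 after 48 h. Every treated library lay below both E8 libraries. The mean fell from 19579 ± 1945 to 10844 ± 726 at 24 h and 11336 ± 421 at 48 h (SD, n = 2 each), 1.81-fold and 1.73-fold lower. The log2 fold changes were -0.85 (SE 0.14, limma adjusted p = 0.0004) and -0.79 (SE 0.14, limma adjusted p = 0.00081), and -0.58 at 12 h (limma adjusted p = 0.042). The 12 h call was lost, at limma adjusted p from 0.056 to 0.068, in 6 alternatives, among them each one that left out a 24 h or 48 h library.

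SNHG14 alone gave 52.1% and 47.2% of all host reads in E8, 38.4% after 12 h, 33.7% and 35.0% after 24 h, and 36.1% and 33.6% after 48 h. Its exons overlap those of SNRPN on the same strand and of UBE3A on the opposite strand. SNRPN, which encodes a spliceosomal protein, measured 708 and 689 in E8, 488 after 12 h, 500 and 446 after 24 h, and 504 and 563 after 48 h. It fell at 24 h (log2 fold change -0.56, limma adjusted p = 0.022), and its -0.39 at 48 h did not pass (limma adjusted p = 0.13). Its 24 h call was lost without the first (-0.65) or second (-0.48) 24 h library. UBE3A, a ubiquitin ligase, stood at -0.03 at 48 h. Whether the counting used strand is not given in the sources used here.

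SNHG26 fell as well, at 191 and 143 in E8, 94.5 after 12 h, 78.1 and 93.5 after 24 h, and 73.4 and 63.5 after 48 h. It is at chr7:22854178-22861579 (plus strand), and its treated and untreated values do not overlap. The log2 fold change was -1.26 at 48 h (SE 0.25, limma adjusted p = 0.0017) and -0.94 at 24 h (limma adjusted p = 0.012). The 24 h value was -0.74 without the first E8 library and -0.82 without the first 24 h library, neither called. SNHG18 measured 244 and 226 in E8, 128 after 12 h, 117 and 173 after 24 h, and 245 and 178 after 48 h, overlapping E8 at 48 h. It fell at 24 h (log2 fold change -0.72, limma adjusted p = 0.033). Its 24 h value was -0.44 without the first 24 h library and -0.67 without the first E8 library, neither called.

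SNHG12 rose most at 12 h. It is at chr1:28578538-28583132 (minus strand), carries 4 snoRNAs and shares exon bases with TRNAU1AP on the opposite strand. It measured 300.3 and 405 in E8, 851 after 12 h, 729 and 716 after 24 h, and 511 and 502 after 48 h. All treated values exceed E8, and the later the library, the closer it lay to E8. The log2 fold change was 1.29 at 12 h (limma adjusted p = 0.00058), 1.05 at 24 h (SE 0.17, limma adjusted p = 0.00037) and 0.54 at 48 h (limma adjusted p = 0.0473). The 48 h call was lost in 11 of 17 alternatives, and without the first E8 library the value was 0.32.

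SNHG7 and SNHG19 rose at 24 h and 48 h in a way that rested on the first E8 library. SNHG7 measured 403 and 761 in E8, 936 after 12 h, 968 and 1065 after 24 h, and 825 and 954 after 48 h. It shares exon bases with FAM69B on the opposite strand. Of its 50-base runs, 41.5% also stand in transcripts of other genes, mostly FAM69B (39.4%). SNHG19 measured 171 and 447 in E8, 469 after 12 h, 498 and 592 after 24 h, and 527 and 586 after 48 h. In both, the first E8 library is far below the second, which is nearer to the treated libraries. The log2 fold changes at 48 h, 0.68 and 1.00 (limma adjusted p = 0.039 and 0.018), were 0.22 and 0.31 without the first E8 library, and neither passed. Without the first or second 48 h library they were 0.78 and 0.57 for SNHG7 and 1.08 and 0.93 for SNHG19, none called. At 24 h they were 0.87 and 0.97, and 0.42 and 0.28 without the first E8 library, neither called. SNHG19 was not called with DESeq2 at 24 h or 48 h. SNHG7 was not called at 48 h with edgeR or DESeq2. SNHG10 measured 114 and 126 in E8, 169 after 12 h, 183 and 185 after 24 h, and 159.8 and 135 after 48 h, and its 0.61 at 24 h (limma adjusted p = 0.0497) was lost in 12 of 17 alternatives.

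**Figure D3:**
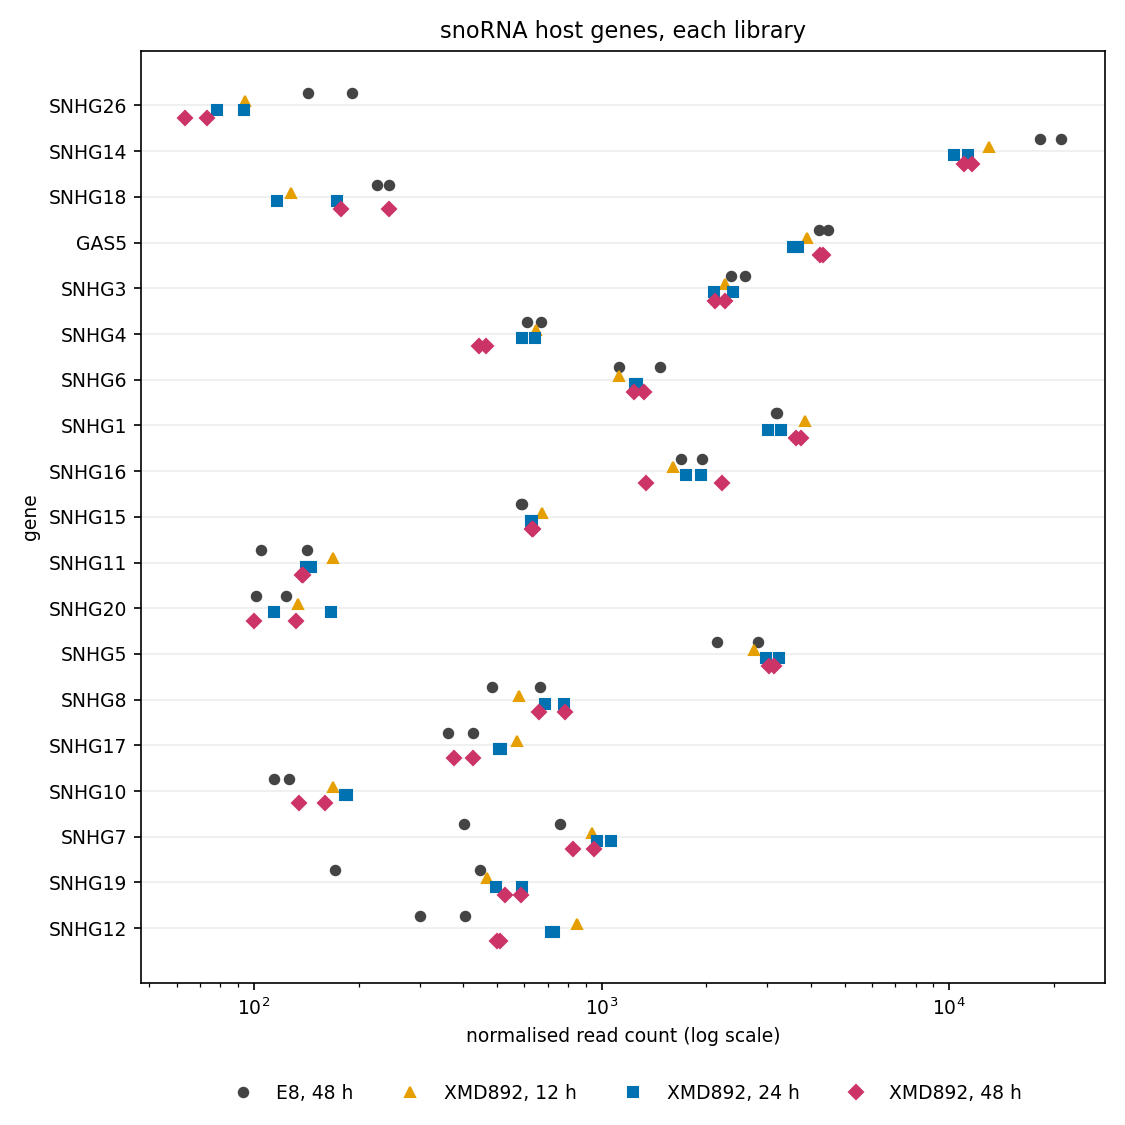
Deposited values (horizontal log axis) of the 19 snoRNA hosts, 1 row per gene and 1 point per library, with the marker showing the group (E8 at 48 h, XMD892 at 12 h, 24 h and 48 h). SNHG14 is below E8 in all treated libraries, and for SNHG19 the first E8 library (171) stands apart from the other 6 (447 to 592).

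The difference between the E8 libraries moved with GC content, taken from the longest transcript of each gene. Across the 92 members with a gene model, Spearman's correlation between GC content and the log2 difference of the first minus the second E8 library was -0.37. It was -0.33 over 70 LINC genes, -0.50 over 19 hosts and -0.64 over 16177 tested genes, all in the same 2 libraries. SNHG7 has 65.9% GC, SNHG12 56.6% and SNHG19 56.1%, where the median host has 49.1% and the median LINC gene 47.5%. SNHG14, at 44.9%, and SNHG26, at 39.2%, are below that median. With the GC trend removed, SNHG7 and SNHG19 still passed at both times, at 0.66 and 0.96 at 48 h. That setting called more genes in all, 3424 of 16177 at 48 h against 1884 of 16351 in the main fit. Whether GC content accounts for these rises was not tested.

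**Figure D4:**
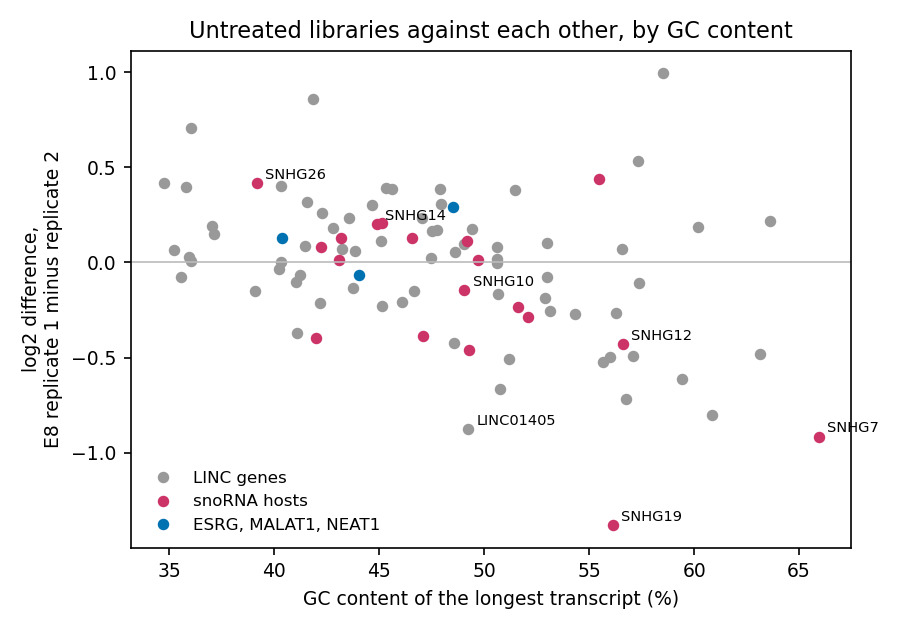
GC content of the longest transcript (horizontal axis, percent) against the log2 difference of the first minus the second E8 library (vertical axis), 1 point per member, coloured by class. Members with more GC tend to have lower values in the first library (Spearman -0.37 over 92 members), with SNHG19 at -1.38.

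The other 12 hosts did not pass at any time, among them most of those at high levels. GAS5, a growth-arrest transcript with 11 snoRNAs, measured 4471 and 4233 in E8, 3892 after 12 h, 3542 and 3673 after 24 h, and 4329 and 4261 after 48 h. Its 24 h libraries are the lowest, with a log2 fold change of -0.27 (limma adjusted p = 0.19), and at 48 h it was -0.02. SNHG1 measured 3195 and 3170 in E8, 3854 after 12 h, 3014 and 3291 after 24 h, and 3745 and 3629 after 48 h, at 0.21 at 48 h. SNHG5, whose start carries the pyrimidine run, measured 2154 and 2811 in E8, 2750 after 12 h, 3232 and 2971 after 24 h, and 3026 and 3132 after 48 h, at 0.33 at 24 h. For SNHG3, SNHG6 and SNHG8 the log2 fold changes at 48 h were -0.17, 0.00 and 0.34, and over all 12 they lay between -0.49 and 0.34 at 48 h and between -0.27 and 0.38 at 24 h.

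The lowest of these was SNHG4, which carries SNORA74A and overlaps exons of MATR3 on the same strand. It measured 668 and 611 in E8, 648 after 12 h, 589 and 642 after 24 h, and 445 and 466 after 48 h. The 48 h libraries lie below all others, and the log2 fold change of -0.49 missed the threshold (limma adjusted p = 0.0527). SNHG17, with 5 snoRNAs, measured 361 and 426 in E8, 570 after 12 h, 514 and 507 after 24 h, and 425 and 377 after 48 h, with 0.38 at 24 h (limma adjusted p = 0.13). SNHG15 varied least in this group, from 585 in E8 to 675 after 12 h. SNHG16 had the widest gap between the 48 h replicates, 1342 and 2228, on either side of its E8 values of 1948 and 1687. Of the 5 hosts with the run at their start, SNHG12 and SNHG19 rose, SNHG18 fell at 24 h, and SNHG4 and SNHG5 did not pass. No host was called between 48 h and 24 h by limma on all 7 libraries, edgeR or DESeq2, and 3 had an unadjusted limma p under 0.05. Fitted on the 24 h and 48 h libraries alone, or with the GC trend removed, limma called 2 hosts, both lower. Over all tested genes these fits called 1043 and 439, against 197 in the main fit.

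Genes that act with snoRNAs and their hosts are described from lists chosen by role. Of 16 snoRNP core and assembly proteins, which bind and mature snoRNAs, none was called at 48 h by limma (4 at an unadjusted p under 0.05). At 24 h 1 rose (6.25%) and at 12 h 2 rose (12.5%). Of 45 protein-coding snoRNA hosts, 3 rose at 48 h (6.67%), 5 at 24 h and 5 at 12 h (11.1% each), and none fell. Higher calls over all tested genes were 5.08% at 48 h, 8.66% at 24 h and 2.56% at 12 h. Among tested genes with a mean of at least 50 they were 6.02%, 10.4% and 3.0%. The coding hosts' shares at 48 h and 24 h lay near these. Calls in either direction were 11.5%, 16.2% and 7.46% of all tested genes at those times. The snoRNP shares were below the higher calls at 48 h and 24 h and above them at 12 h. RPL23A, a large-subunit ribosomal protein, measured 3758 and 3455 in E8, 7227 after 12 h, 5546 and 6506 after 24 h, and 8171 and 7551 after 48 h, a log2 fold change of 1.12. RPL17 stood at 0.91 and RPS2 at 0.66 at 48 h. In both the first E8 library was the lowest, and without it they were 0.54 (called) and 0.30 (not called). RPL17 was also not called without the second 48 h library (0.74), nor RPS2 without the first (0.70) or the second (0.61). The list's median was 0.12 at 48 h and 0.02 at 24 h. Of 17 nonsense-mediated decay factors only 1 was called, and it rose at each time (5.88%). Higher calls were 5.08%, 8.66% and 2.56% of all tested genes at 48, 24 and 12 h. The called factor was SMG9, a regulator of the kinase SMG1. It measured 423 and 416 in E8, 772 after 12 h, 671 and 725 after 24 h, and 721 and 652 after 48 h, a log2 fold change of 0.71 at 48 h (0.63 and not called without the first 48 h library).

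Of 25 other long noncoding RNAs outside the naming rule, 5 fell and none rose at 48 h, and 3 fell at 24 h, where lower calls made up 6.45% and 7.56% of all tested genes. H19, an imprinted transcript, measured 106 and 124 in E8, 85.9 after 12 h, 93.7 and 62.7 after 24 h, and 45.4 and 64.5 after 48 h, a log2 fold change of -1.07. Without the first 48 h library it was -0.82 and not called. FTX, from the X-inactivation centre, stood at -0.95 and HCG11 at -0.66 at 48 h, and both calls were lost without the first E8 library (-0.57 and -0.40) and without the first 48 h library (-0.57 and -0.54). The list's median log2 fold change at 48 h was -0.12.

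Many noncoding genes share a promoter region with a coding gene. A tested coding gene had its start within 5000 bases of the member's start in 18 cases, 10 LINC genes and 8 hosts, of which 14 pairs lie on opposite strands. The sign of the change was the same in 12 of 18 pairs at 48 h, 9 at 24 h and 11 at 12 h. Of the 18 noncoding genes 2 were called at 48 h, 3 at 24 h and 1 at 12 h, and of their 18 neighbours 2, 7 and 4. Over all tested genes the shares called were 11.5% at 48 h, 16.2% at 24 h and 7.46% at 12 h. Both genes were called in no pair at 48 h, 2 at 24 h and 1 at 12 h. SNHG18 and SEMA5A, an axon guidance gene 125 bases away, both fell at 24 h, at -0.72 and -0.84, but at 48 h SEMA5A was called (-0.56) and SNHG18 was not (-0.17). The SEMA5A call was lost at 24 h without the first 24 h library (-0.69) and at 48 h without the first E8 library (-0.42) or without the first (-0.62) or second (-0.49) 48 h library. SNHG10 and GLRX5, a mitochondrial iron-sulfur protein, both rose at 24 h, at 0.61 and 0.57, and their exons overlap on opposite strands. Without the first E8 library GLRX5 was 0.25 and SNHG10 0.54, neither called, and neither was called without the first or the second 24 h library. At 12 h LINC01896 and SALL3, a zinc-finger gene, both fell, at -1.001 and -0.74.

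Elsewhere the coding neighbour was called and the noncoding RNA was not. SIX3, a forebrain transcription factor, measured 718 and 728 in E8, 456 after 12 h, 456 and 495 after 24 h, and 307 and 341 after 48 h, a log2 fold change of -1.16. LINC01833, which starts 2699 bases away on the opposite strand, stood at 0.02 at 48 h. At 24 h SLC3A2, an amino acid transporter subunit, rose by 0.64 on the log2 scale (0.55 and not called without the first 24 h library), and SNHG1, 188 bases away, stood at -0.02. In the reverse case, SNHG19 was called at 48 h (1.00) with TRAF7, 340 bases away, at 0.09, and LINC00337 (-0.83) with ICMT at 0.25. The differences within pairs were not tested.

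**Figure D5:**
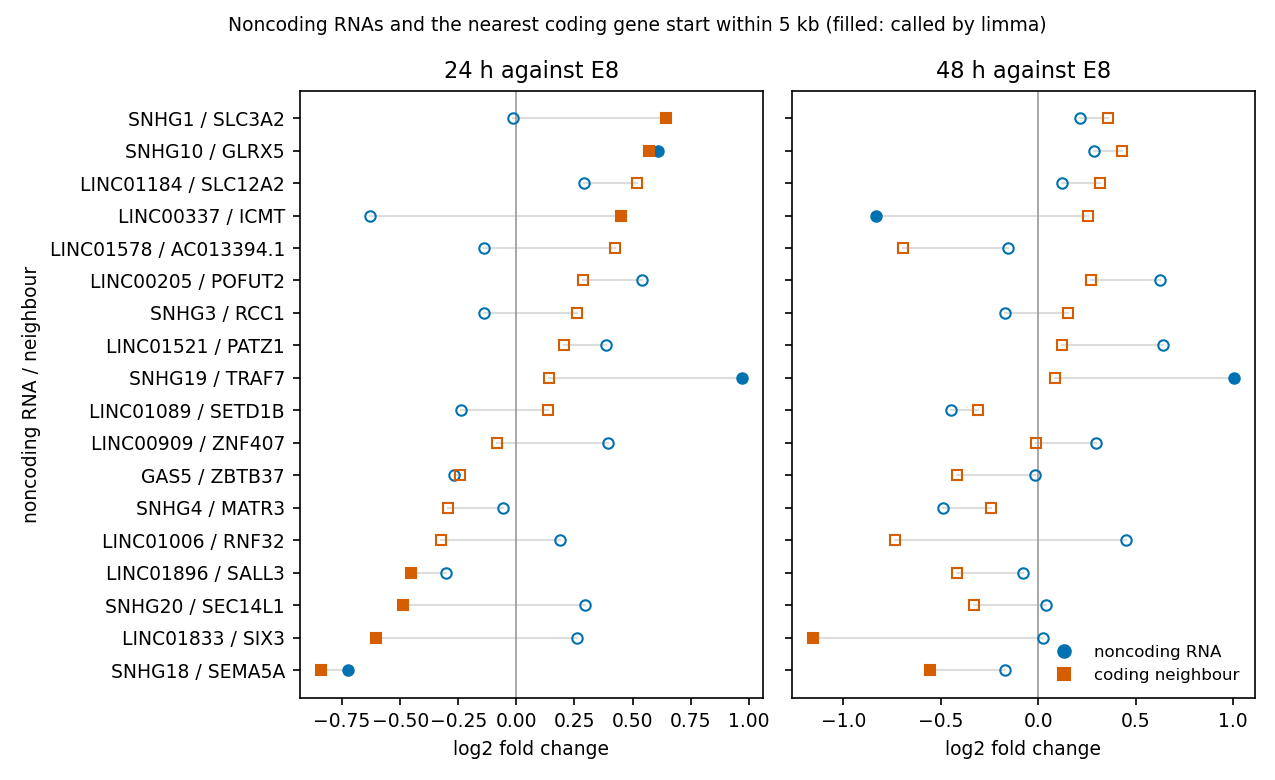
Log2 fold change against E8 (horizontal axis) of 18 noncoding members (circles) and of the nearest coding gene with a start within 5000 bases (squares), 1 row per pair, at 24 h and 48 h, filled where called. In no pair are both genes filled at 48 h, and SIX3 (-1.16) stands apart from LINC01833 (0.02).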

How the data were processed

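RNA from 7 libraries of H1 cells was analysed. Deposited values are a signal, 1 per gene and library. From the values, the authors divided read counts by 1 factor per library, and 100% of values came out whole within 0.1. The submitters' processing notes name Trimmomatic 0.36, STAR, featureCounts 1.5.3, DESeq2 1.26.0 and hg38, with no roles; annotation, strand and filters are not given in the sources used here. There are also 2 unmapped columns, labelled as further XMD 12 h libraries, that correspond to no sample given and were not used.

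Values were taken to log2 with a pseudocount of 1. limma 3.58.1 (R 4.3.3) fitted 4 group means with a trended prior to 16351 genes with a mean of at least 10. This left 3 residual degrees of freedom, beside 18.4 prior degrees of freedom taken from all tested genes. Each gene's variance thus rests more on genes of similar level than on its own libraries. Benjamini-Hochberg adjustment ran over all 16351 genes. The single 12 h library takes its variance from the other groups. Fold changes in text such as "2.36-fold" are ratios of means. edgeR 4.0.16 and DESeq2 1.42.0 on recovered reads, other scalings, filters and pseudocounts, a GC correction and leaving out libraries were alternatives. The fit was tested on simulated data. Gene models are GENCODE 29 (92 of 94 members, 5 by another symbol), promoters RefSeq's.

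The members, lists and tests were chosen with earlier results of these data known. Named members were those given by name, selected SNHG genes, and called members with the largest changes whose libraries did not overlap: up to 8, 4, 3 and 2 LINC genes at 48 h, 24 h, between 48 h and 24 h, and at 12 h, and up to 4 and 3 hosts at 48 h and 24 h, where that many more were called. Other called members are named with fold changes only, except LINC00599. The list of speckle and paraspeckle proteins is not reported here.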

Additional observations from a re-analysis of the deposited data

Results flagged for a closer look

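LINC01876 differed between the treated times, with a log2 fold change of 1.22 from 24 h to 48 h (limma adjusted p = 0.046), both 48 h libraries above both 24 h libraries. The value was 1.24 with edgeR (adjusted p = 0.059) and 1.23 with DESeq2 (adjusted p = 0.094), neither passing.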

How the results depend on the processing

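Main counts of LINC genes called were 11 at 48 h, 19 at 24 h, 8 at 12 h and 1 between 48 h and 24 h, and of hosts 5, 7, 2 and 0. Without a low-value filter, 1 host was called at 12 h and 0 LINC genes between 48 h and 24 h. Between 48 h and 24 h edgeR and DESeq2 each called 0 LINC genes, and the fit of only the groups compared called 2 LINC genes and 2 hosts. At 48 h edgeR called 3 hosts and DESeq2 3, and at 24 h DESeq2 called 4. With the GC trend removed, 15 LINC genes and 5 hosts were called at 12 h and 2 hosts between 48 h and 24 h. Over all tested genes that setting called 2727 at 12 h, against 1219 in the main fit, and 439 against 197 between 48 h and 24 h. With the libraries scaled to the same total, 2 hosts rose and 3 fell at 48 h. Leaving out 1 library at a time gave 5 to 18 LINC genes at 48 h, 9 to 22 at 24 h, 7 to 13 at 12 h and 0 to 2 between 48 h and 24 h, and 2 to 8, 2 to 10, 1 to 7 and 0 to 2 hosts. With the replicate block, LINC counts were 12, 19, 6 and 1 and host counts 4, 6, 3 and 0. Same-numbered libraries did not pair (correlations of their deviations -0.04, -0.05 and -0.07). Of 1472 alternative values of single called genes, 1311 stayed on their side of the threshold, 161 lost the call and 0 reversed. The cause of these shifts was not tested. With 2 libraries per group, small changes of low genes are not detectable.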
